A study of Mus musculus with 24 samples.

Results

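B cells without surface IgM, sorted from a transgenic mouse thymus, were compared with B cells of the same phenotype sorted from fetal mouse liver. The arrays were chosen by their titles alone: 2 arrays of transgenic thymus (22 and 23) and 3 arrays of fetal liver (16, 17 and 18), 5 of the 24 arrays in the series. Cells of arrays 22 and 23, called tg here, are labelled as deficient for Foxn1 (-/-) and as coming from a transgenic thymus, and the sources used here name neither the transgenes, nor the promoter that drives them, nor the age of the mice. Cells of arrays 16 to 18 are labelled wild-type and fetal, with no age and no Foxn1 genotype. Tissue, genotype and developmental age therefore differ together and cannot be told apart. The series also holds DP thymocytes, the CD4 and CD8 double-positive stage, of the transgenic thymus (4 arrays) and of a Foxn1 heterozygous thymus (3 arrays), which enter below at a few points. The title of the series names niche components of blood progenitors, and the comparison asks how the same B cell phenotype differs between a fetal and a thymic environment.

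A B cell precursor first rearranges its heavy chain genes with the Rag recombinase. It then pairs the heavy chain with the surrogate light chain (Igll1 and the Vpreb proteins) and with the signal chains Cd79a and Cd79b, and it shows IgM on its surface only after a light chain has been made. Transcription factors such as Tcf3, Ebf1 and Pax5 set up this programme, and stromal signals, among them Il7, the Kit ligand and Cxcl12, support it in fetal liver. In a normal thymus Foxn1 drives epithelial cells to make Notch ligands and chemokines, under which incoming progenitors become T cells.

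Each value is the log2 of the processed Cy3 signal of the gene's brightest probe minus the 75th percentile of that array, so 0 is the 75th percentile and 1 unit is a doubling. Array 23 was dim. Its median processed signal was 125, against 257 on array 22 and 251 to 314 in fetal liver, and 80.6% of its probes were well above background, against 89.6% and 92.2% to 96.2%. The tg arrays lay further from each other than replicates did elsewhere: the median absolute difference between 22 and 23 was 0.73 over all genes, and the 24 replicate pairs of the other 7 groups had 0.26 to 0.62. On the first principal component array 23 stood at 239, array 22 at 20.2 and the fetal liver arrays between -26.4 and -16.8. Nothing in the labels ties the replicates to separate animals. A p-value here therefore measures a change only against how far replicate arrays spread, and that spread may be technical. In the main fit the spread was pooled over all 24 arrays of the series, most of them outside this comparison. The tg arrays lay further apart than other replicates, so the pooled spread may be too small for them. In bulk samples such as these, fewer cells of a type and less RNA per cell cannot be told apart.

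Of 33540 genes tested, 6 were higher in tg B cells and 42 lower at a limma adjusted p under 0.05, which is 0.0179% and 0.125% of the genes, and 0.143% together. In all 48 the groups did not overlap. Over all genes both tg arrays lay above every fetal liver array for 9.05% and below for 24.0%. With array weights, or with only the 5 arrays in the fit, limma called 0 genes (1706 and 4127 at an unadjusted p under 0.05). The median difference over all genes was -0.21, with -0.11 on array 22 and -0.34 on array 23, so changes are read against a general shift of that size. Of the 33540 genes 21249 were lower in tg by the mean, whether or not they passed, and counts of lower genes in a list below stand against that share. Median scaling turned this shift to 0.09. It was -0.04 with quantile scaling and -0.06 with a normexp background. The split of calls moved with the scaling too: 6 higher and 8 lower with median scaling, 4 and 4 with quantile scaling and 6 and 2 with normexp. For 42 of the 48 called genes array 23 lay further from fetal liver than array 22. Among the 42 lower genes the median difference was -2.29 on array 22 and -3.44 on array 23.

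The probes behind the named changes are given here because the size of a change differed from probe to probe of the same gene. Shown are the first 30 bases of each 60-base probe, 5′ to 3′, with the position of the probe in mouse build mm9 as the array annotation gives it. The Anxa1 probes lie on the minus strand and the others on the plus strand. The sources used here do not say whether a probe lies in a coding exon or an untranslated region.
Anxa1, tested probe, chr19:20449722-20449781: tgacatgaatgaaatcaaagtattttacca
Anxa1, other probe, chr19:20447938-20447997: gccccataagcaagtcactttggtaccatt
Osbpl8, tested probe, chr10:110734019-110734078: acttcagttaatgggtttataaagtcaagc
Laptm4a, tested probe, chr12:8943520-8943579: tgtttggaactgctacaaatacatcaacaa
Igf1, tested probe, chr10:87378456-87378515: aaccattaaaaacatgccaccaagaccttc
Igf1, other probe, chr10:87393581-87393640: agtccaataacattacaaagatgggcattt
Igf1, other probe, chr10:87399581-87399640: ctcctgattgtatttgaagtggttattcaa
Cd79a, tested probe, chr7:25684357-25684614: tagaaaacaacatattaaaacgctcctgtg
Cd79a, other probe, chr12:53180558-53180617: cctcctcccagatctgtcatggccacttaa

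Anxa1, a phospholipid-binding protein known from the resolution of inflammation, showed the widest gap of all called genes. It measured -0.65, -0.82 and -1.04 in fetal liver and -7.68 and -7.41 on tg arrays 22 and 23. Neither tg value was well above background, and all 3 fetal liver values were, so the groups lay far apart. Against the detection limit the fall was at least 21.9-fold (-7.54 ± 0.19, SD, n = 2, against -0.84 ± 0.20, n = 3, limma adjusted p = 0.00178). The second Anxa1 probe shown above, well above background on 4 of the 5 arrays, differed by -0.93. On that probe array 22 (-4.45) lay inside the fetal range of -4.50 to -4.30, and array 23 (-6.16) lay below it. Supt16 belongs to FACT, a complex that moves histones out of the way of polymerases. It measured -3.04, -2.99 and -1.34 in fetal liver and -7.75 and -7.45 on the tg arrays. Again the tg arrays were not well above background, and the groups did not overlap, with a fall of at least 7.12-fold (limma adjusted p = 0.00178). It has 1 probe, at chr14:52780507-52780566. Neither gene passed with a normexp background. With array 23 left out both genes still passed (limma adjusted p = 0.0291 for each). Array 22 is then the only tg array, not well above background for either gene, and its spread is borrowed from the remaining groups. The third of the 48 genes to do so was a probe without a gene symbol, A_55_P1981455.

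Osbpl8, a sterol-binding protein of the endoplasmic reticulum, was above background on all 5 arrays. It measured -1.60, -1.22 and -1.03 in fetal liver and -3.10 and -4.03 on arrays 22 and 23, so both tg values were below every fetal liver value. It fell by 2.28 ± 0.30 (SE, limma adjusted p = 0.00498), but without array 23 the difference was -1.82 and did not pass (adjusted p = 0.158). Laptm4a, a lysosomal membrane protein, measured -0.21, -0.68 and 1.02 in fetal liver and -4.45 and -4.50 in tg. The tg arrays lay close together here, and the fall was 4.52 ± 0.75 (SE, limma adjusted p = 0.0330). Dlx1, a homeodomain transcription factor, measured -2.15, -1.71 and -1.85 in fetal liver against -3.73 and -3.90, a difference of -1.91 ± 0.29 (SE, limma adjusted p = 0.0209). Its second probe was well above background on only 1 of the 5 arrays and gives no second measure. Neither Laptm4a nor Dlx1 passed without array 23 (adjusted p = 0.218 and 0.181).

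For other called genes array 22 lay between fetal liver and array 23. Ywhae, a 14-3-3 protein, measured -2.65, -1.64 and -2.07 in fetal liver, -4.004 on array 22 and -7.31 on array 23, where it was not well above background (limma adjusted p = 0.0290). The mitochondrial gene for cytochrome b (CYTB) measured 0.60, 0.94 and 2.02 in fetal liver against -0.98 and -2.27 (limma adjusted p = 0.0474). Soga1 measured 1.11, 1.195 and 1.28 against 0.10 and -1.07 (limma adjusted p = 0.0432), and its other probes differed by -0.27 and -1.02. Both tg arrays were below all fetal liver arrays for each of these genes, with a gap between 22 and 23 that was wide in Ywhae. Zfp78, a zinc finger protein, differed by -2.94 ± 0.52 and the elastase gene Cela3a by -1.12 ± 0.20 (SE, limma adjusted p = 0.0474 for both). The chemosensory receptor genes Vmn1r4 and Tas2r115 were also lower, Vmn1r4 by at least 4.96-fold (limma adjusted p = 0.0283) and Tas2r115 by 3.06 ± 0.55 (SE, limma adjusted p = 0.0474).

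Among the 6 higher genes Igf1, a growth factor that acts through the receptor Igf1r, was the only one with a gene symbol. It measured 0.38, 0.54 and 0.37 in fetal liver and 1.25 and 1.43 on arrays 22 and 23. The tg arrays were close together and above all fetal liver arrays, and the rise was 0.91 ± 0.17 (SE, limma adjusted p = 0.0474). Igf1 has 5 probes, and the others differed by 0.54, 0.35, -0.02 and -0.58, the last of these well above background on only 2 of the 5 arrays. With the mean of its probes the difference was 0.24 (adjusted p = 0.812). Without array 23 it was 0.82 (adjusted p = 0.304). The strongest higher call was a transcript named in the files only by its accession-like identifier BC125250, which differed by 2.47 ± 0.34 (SE, limma adjusted p = 0.00672) and was chosen for mention after its value was seen. Of genes well above background on all 5 arrays, the next in order did not pass: the aldo-keto reductase Akr7a5 at 1.79 ± 0.37, the acetylcholine receptor subunit Chrnb1 at 4.04 ± 0.85, the olfactory receptor Olfr285 at 1.66 ± 0.37, the co-repressor Bcor at 1.06 ± 0.24 and the neurotrophin Bdnf at 0.78 ± 0.18 (limma adjusted p = 0.0669, 0.0674, 0.0830, 0.0835 and 0.0846). Array 23 lay much further from fetal liver than array 22 for Chrnb1 (-1.04 on array 22, 2.18 on array 23, -4.59 to -1.91 in fetal liver). It did so for Olfr285 too (-0.74, 1.06 and -1.88 to -1.20). For Akr7a5 array 22 lay further (1.17, against 0.48 on array 23).

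**Figure D1:**
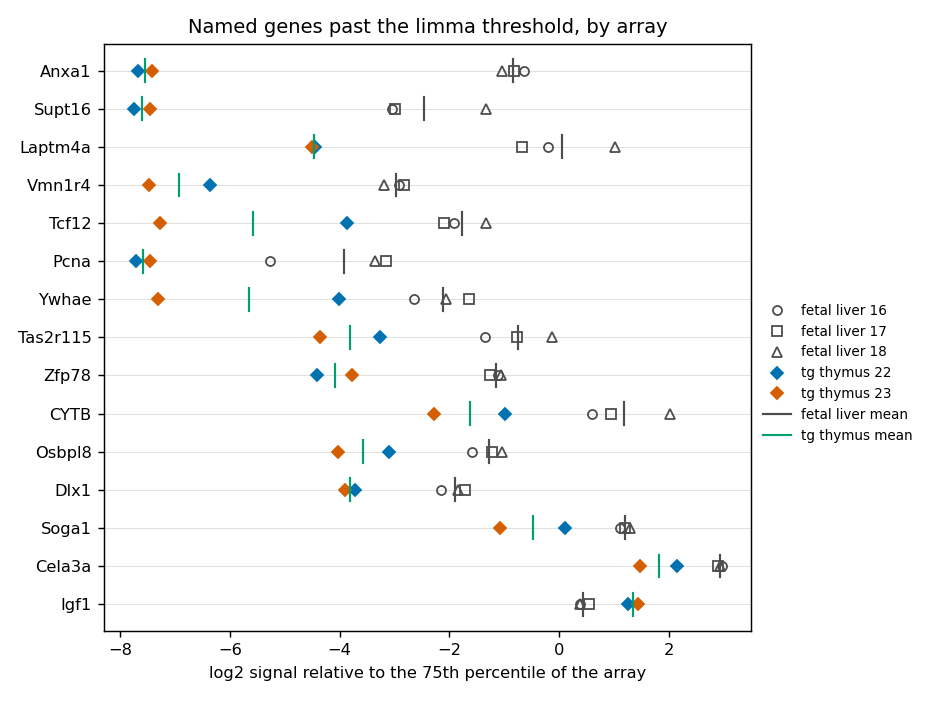
Log2 signal relative to the array's 75th percentile (x axis) for the genes named in the text by the rule that passed the limma threshold (rows). Open symbols are fetal liver arrays 16, 17 and 18, filled diamonds are tg thymus arrays 22 and 23, and bars are group means; in every row the groups do not overlap, Igf1 alone lies higher in tg, and values near -7.5 are not well above background.

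Beyond the named genes, several called genes were singled out after their values were seen. Grb10, an imprinted gene for an adaptor of insulin and growth factor receptors, measured 2.31, 2.69 and 3.06 in fetal liver and 0.27 and -0.57 in tg (limma adjusted p = 0.0488). Cks2, a partner of cell cycle kinases, differed by -3.37 ± 0.64 (SE, limma adjusted p = 0.0488), with array 23 not well above background. The ribosomal protein gene Rpl23 differed by -2.48 ± 0.47 (SE, limma adjusted p = 0.0488), and its other probes by -0.66 and -1.65. Nop56, a protein of ribosomal RNA processing, differed by -1.71 ± 0.33 (SE, limma adjusted p = 0.0495). Its tested probe is annotated to chromosome X although the gene lies on chromosome 2, and its other probes differed by -1.13 and -1.52, the same direction.

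How far a change rests on 1 probe could be read from the 19 called genes that have more than 1. They hold 39 other probes, of which 28 differed in the direction of the tested probe. For 10 genes every other probe did so, and for 3 genes none did. These counts take every probe, also those not well above background. Of the 42 lower genes, 21 were well above background on both tg arrays, 12 on 1 and 9 on none.

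**Figure D2:**
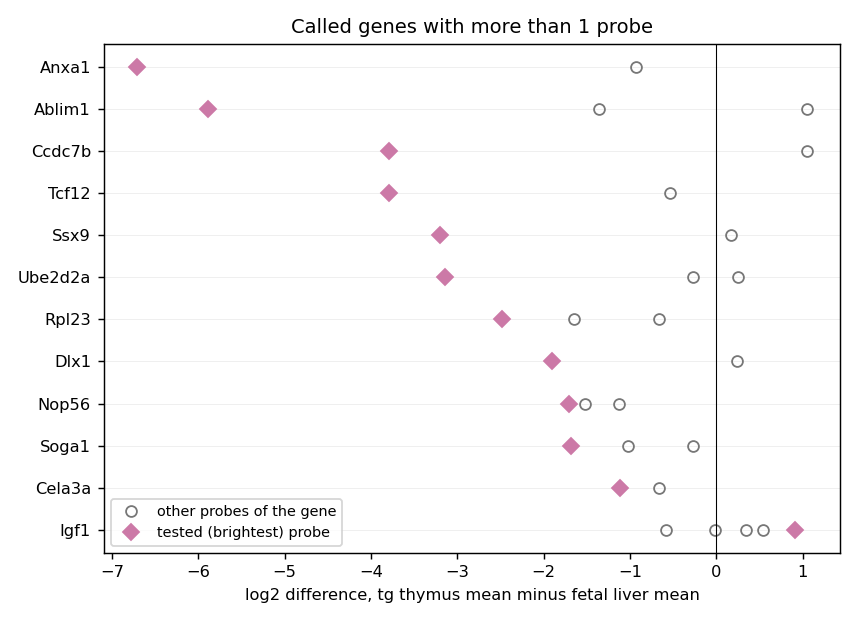
Log2 difference, tg thymus mean minus fetal liver mean (x axis), for each probe of called genes with a symbol and more than 1 probe (rows); diamonds are the tested, brightest probe and open circles the others. For Anxa1 the tested probe lies at -6.71 and the other at -0.93, and most other probes, some of them not well above background, lie nearer 0 than the tested one.

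In the receptor complex of precursor B cells no gene passed, and 6 of 8 measured members were lower in tg. Both tg arrays lay below all fetal liver arrays for 3 of 8, against 24.0% of all genes tested. Cd79a, the signal chain Ig-alpha, measured 0.69, -0.94 and 1.27 in fetal liver, -1.79 on array 22 and -4.79 on array 23. Both tg arrays were lower, array 23 by far the more, and the difference of -3.63 ± 0.84 did not pass (SE, limma adjusted p = 0.0932). Without array 23 it was -2.13 (limma adjusted p = 0.586). Without array 22 it was -5.13 and passed (limma adjusted p = 0.00136), in a fit with array 23 as the only tg array that called 5811 genes. A second probe that the file names Cd79a differed by -0.63; it is annotated to chromosome 12, whereas the gene lies on chromosome 7. Cd79b, its partner Ig-beta, measured 0.13, 0.16 and 1.37 in fetal liver against -0.27 and -0.12, without overlap (-0.75 ± 0.34, SE, limma adjusted p = 0.273).

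The parts of the surrogate light chain differed in sign, none past the threshold. Igll1, its constant-like part, measured -1.51, -1.01 and -0.20 in fetal liver against -0.68 and -0.25, inside the fetal range. Vpreb1 measured -0.14, -1.07 and -0.65 against -1.31 and -1.84, below it. Vpreb2 was nearly level, with 2.69, 2.90 and 2.86 against 2.65 and 2.93. For Vpreb3, which binds the heavy chain inside the cell, array 22 at -0.75 lay within the fetal range of -0.93 to -0.17 and array 23 at -1.96 below it. Ighm, the IgM heavy chain, measured 0.58, 0.33 and 1.74 in fetal liver, 0.35 on array 22 and 3.18 on array 23, so the tg arrays disagreed by more than the fetal liver range. Igkc, the kappa light chain, measured -2.22, -2.56 and -3.18 against -3.50 and -2.16. None of these passed (limma adjusted p between 0.237 and 0.940).

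Genes that carry the receptor's signal were lower in 12 of 17 cases (median -0.37, against -0.21 for all genes), and none passed. The adaptor Blnk measured -0.25, -0.18 and -0.49 in fetal liver against -1.09 and -1.15, and the tg arrays lay together below the fetal range. The exchange factor Vav1 did likewise, with -0.30, -0.61 and -0.60 against -1.34 and -1.56 (-0.95 ± 0.31, SE, limma adjusted p = 0.165). The kinase Btk measured 0.42, 0.42 and 0.61 against 0.04 and -0.52, again without overlap. On the other Btk probe both tg arrays (-2.24 and -3.02) lay inside the fetal range of -3.96 to -0.19. The phosphatase Ptpn6 measured -2.91, -0.91 and -0.79 against -3.75 and -4.17, and the kinase Prkcb was not well above background in tg (at least 2.30-fold lower, limma adjusted p = 0.145). The receptor-proximal kinase Syk was not lower, at 1.41, 1.62 and 1.55 against 1.62 and 2.01.

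Surface proteins of B cells were mixed by the mean, 6 of 17 higher and 11 lower (median -0.18), with none past the threshold. Lower were 7 of 17 on array 22 (median 0.14) and 11 of 17 on array 23 (median -0.34). Both tg arrays lay above all fetal liver arrays for 4 of 17 and below for 2, against 9.05% and 24.0% of all genes. Cd22, an inhibitory lectin, measured 5.11, 5.32 and 5.24 in fetal liver against 5.52 and 5.81, and the complement receptor Cr2 4.804, 4.94 and 4.93 against 5.06 and 5.56. Both tg arrays were above all fetal liver arrays for both genes. Bst1, a marker of precursor B cells, was below, at -1.97, -1.53 and -1.18 against -2.44 and -3.30 (-1.31 ± 0.45, SE, limma adjusted p = 0.175). On the other Bst1 probe array 22 (-2.89) lay inside the fetal range of -4.79 to -2.71, and array 23 (-7.44) lay below it. Fcrla, an intracellular Fc receptor-like protein, was not well above background in tg (at least 4.79-fold lower, limma adjusted p = 0.161). Ptprc, which encodes the B220 form of CD45, measured 0.60, 0.74 and 0.45 against 0.85 and 0.26, with array 22 above and array 23 below the fetal range.

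Transcription factors of the B lineage held 1 called gene. Tcf12, an E protein that pairs with Tcf3, measured -1.91, -2.10 and -1.33 in fetal liver, -3.86 on array 22 and -7.28 on array 23, where it was not well above background (-3.79 ± 0.70, SE, limma adjusted p = 0.0474). Its other probe, well above background on 4 of the 5 arrays, differed by -0.54, with the tg arrays on opposite sides of fetal liver. That probe measured -5.26, -4.89 and -4.34 in fetal liver, -7.70 on array 22 and -3.03 on array 23. In all 18 of 23 factors were lower (median -0.36), and for 6 both tg arrays lay below all fetal liver arrays, close to the 24.0% of all genes. Ets1 measured -0.06, 0.23 and 1.98 against -2.04 and -2.13, and did not overlap (-2.80 ± 0.70, SE, limma adjusted p = 0.104). Erg was not well above background on either tg array (-7.57 and -7.40, against -2.95, -3.32 and -0.23, at least 8.72-fold lower, limma adjusted p = 0.180), and its second probe was well above background on only 3 of the 5 arrays. Tcf3 measured 0.69, -0.05 and 1.39 against -0.74 and -0.08, with its other probe at 0.62, the opposite sign.

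The factors that define B cell commitment did not separate the tissues. Pax5 measured 1.05, 1.52 and 1.96 in fetal liver against 1.78 and 1.70, inside the fetal range. Ebf1 measured -2.47, -2.31 and -1.48 against -1.94 and -3.52, with array 22 inside the fetal range and array 23 below it. Myb, a regulator of early progenitors, was at -3.97 on array 22, as low as the lowest fetal array (-3.96), and at -7.33 on array 23, not well above background. Array 23 alone lay high for Lef1 (3.09, against -0.77 on array 22 and -1.63 to -0.21 in fetal liver).

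Genes of V(D)J recombination, which assembles antigen receptor genes, were lower in 11 of 12 cases by the mean of both arrays (median -0.31), but 10 of 12 were lower on array 23 and 5 of 12 on array 22. The list median was 0.07 on array 22 and -0.46 on array 23. Rag1 measured -2.82, -1.995 and -1.32 in fetal liver against -3.09 and -3.09. Its other probe was well above background on only 3 of the 5 arrays. Rag2, its partner, measured -3.13, -1.92 and 0.12 against -0.92 and -5.98, with array 22 inside the fetal range and array 23 below it. Dntt, which adds untemplated bases at the joints and is low in fetal B lymphopoiesis, measured 1.496, 1.67 and 1.62 against 1.75 and 1.92, above all fetal liver arrays by little (0.24 ± 0.17, SE, limma adjusted p = 0.463). No gene of this list passed.

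**Figure D3:**
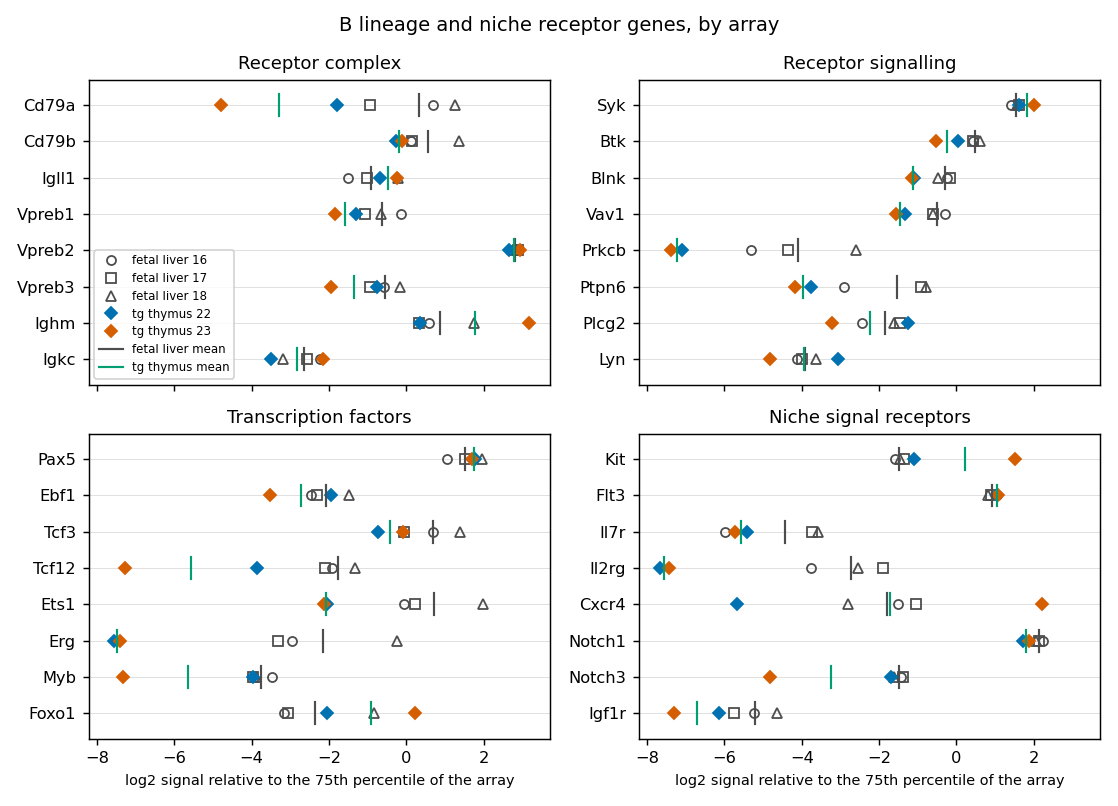
Log2 signal relative to the array's 75th percentile (x axis) for 32 genes of the receptor complex, receptor signalling, transcription factors and niche signal receptors (rows); symbols as in the plot of called genes. Tcf12 is the only one past the threshold; Cd79a, Ets1, Erg and Il2rg lie below all fetal liver arrays in tg, Pax5 and Vpreb2 overlap, and array 23 stands away from array 22 for Ighm, Kit, Cxcr4 and Myb.

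Receptors for niche signals did not change in 1 direction, and none passed. By the mean of both arrays 8 of 14 were higher and 6 lower (median 0.10). The arrays parted, with 10 of 14 lower on array 22 (median -0.36) and 6 of 14 on array 23 (median 0.19). Both tg arrays lay below all fetal liver arrays for 5 of 14 and above for 2, against 24.0% and 9.05% of all genes. Kit, the receptor of stem cell factor, measured -1.60, -1.36 and -1.47 in fetal liver, -1.09 on array 22 and 1.51 on array 23. Both tg arrays were above fetal liver, array 22 only by a little, so most of the difference of 1.69 ± 0.45 came from array 23 (SE, limma adjusted p = 0.121). Il2rg, the common gamma chain shared by the Il7 receptor, was not well above background on either tg array (-7.68 and -7.43) and measured -3.76, -1.89 and -2.56 in fetal liver (at least 5.87-fold lower, limma adjusted p = 0.140). Il7r itself was low everywhere: -5.99, -3.74 and -3.59 against -5.43 and -5.73, overlapping. The chemokine receptor Cxcr4 measured -1.51, -1.06 and -2.81 in fetal liver but -5.66 on array 22 and 2.22 on array 23, on opposite sides. Notch1 measured 2.23, 2.14 and 2.06 against 1.71 and 1.88, slightly below, and Notch3 was at -1.68 on array 22 and -4.82 on array 23 against -1.62 to -1.37.

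Ligands of the niche are made mainly by stroma. Of 13 tested in these sorted B cells 6 were higher and 7 lower (median -0.05), and Igf1, described above, passed. Kitl measured 0.08, 0.23 and 0.02 in fetal liver against -0.37 and -0.59, below it on both arrays (-0.59 ± 0.28, SE, limma adjusted p = 0.291). Cxcl12 measured -1.11, -1.26 and -1.06 against -1.49 and -1.39, also below (-0.29 ± 0.32, limma adjusted p = 0.646). The Notch ligand Dll4 overlapped (1.03, 1.34 and 1.07 against 1.06 and 1.13), as did the chemokine Ccl25 (3.99, 4.01 and 4.36 against 4.22 and 4.33). Dll1 lay below fetal liver on both arrays (-1.57 and -2.33, against -0.62, -0.82 and -0.35, limma adjusted p = 0.174), and its second probe differed by -0.46. Tslp, a cytokine related to Il7, measured -2.09, -2.91 and -2.01 against -4.75 and -3.35, also without overlap (-1.71 ± 1.17, SE, limma adjusted p = 0.446). Foxn1 measured -0.31, -0.14 and -0.47 in fetal liver against 0.13 and -0.92. Foxn1 acts in epithelium, and where the mutation lies relative to the probe is unknown here, which leaves this level unable to check the labels. Apart from Igf1, none of the 13 niche ligands tested passed.

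Downstream of the cytokine receptors the Jak, Stat and Socs genes showed how far the tg arrays parted: 10 of 13 were lower on array 22 and 3 of 13 on array 23. Tyk2 was at -1.68 on array 22 and 2.81 on array 23 (-2.85 to -1.31 in fetal liver), and the feedback inhibitor Socs3 at -4.28 and 1.47 (-2.95 to -2.57). Of 10 Notch target genes tested 5 were higher and 5 lower. Il2ra, the alpha chain of the Il2 receptor, measured -3.29, -2.47 and -2.72 in fetal liver against -1.58 and -1.93, above all fetal liver arrays (1.07 ± 0.36, SE, limma adjusted p = 0.175). Hes5, a classical Notch target, overlapped at 4.62, 4.60 and 4.92 against 4.68 and 4.94.

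T lineage genes were lower in 15 of 21 cases (median -0.58), and 1 passed. Trac, the T cell receptor alpha constant gene, was not well above background on the tg arrays (-7.61 and -7.34, against -3.76, -3.43 and -2.62, at least 4.07-fold lower, limma adjusted p = 0.157). Trbc2, the beta constant gene, measured -0.27, -0.07 and -0.48 against -0.96 and 0.02. On all 16 thymocyte arrays of the series Trbc2 lay between 0.24 and 3.77, above every B cell array of this comparison. Tcf7, a T lineage transcription factor, was at -4.56 and -6.09 on the tg arrays for its tested probe, below the thymocyte range of -3.35 to 1.68. Its other probe, well above background on only 3 of the 5 arrays, lay higher in tg. That probe measured -4.06, -6.53 and -7.36 in fetal liver against -2.97 and -0.57. Other T cell markers did not show such a gap to the thymocytes: Cd4 on the tg arrays (3.66 and 3.92) lay at or above the highest thymocyte array (3.66), and Lck and Cd3e lay above the thymocyte median on both. The same markers were high in fetal liver too. There Cd4 measured 3.58 to 3.84, and Cd4, Lck and Cd3e lay above that median on all 3 arrays. Of 10 T cell markers 3 lay above that median on both tg arrays and 6 on neither, against 4 on all fetal liver arrays and 4 on none. The part of thymocytes in the tg B arrays was not tested. Thy1 measured 1.11, 1.33 and 0.95 in fetal liver against 1.36 and 2.27, above it on both arrays (0.69 ± 0.30, SE, limma adjusted p = 0.260).

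Markers of the B cell itself separated the arrays less clearly. Of 12 B cell markers, 8 lay above the thymocyte median on all 3 fetal liver arrays and 4 on both tg arrays, while 4 lay above it on neither tg array. Pax5 was above every thymocyte array on both tg arrays (1.78 and 1.70, thymocytes 0.74 to 1.22), but Cd79a was below the thymocyte median of -1.57 on both and Vpreb1 below its median of -0.84. The log2 of the summed B marker signals was 5.77 to 6.18 in tg, 5.47 to 5.75 in fetal liver and 5.43 to 5.76 in the thymocyte groups. Cd22, the brightest of the 12, carries most of that sum. It measured 5.15 to 5.58 on the thymocyte arrays, a range that holds 1 of the tg values (5.52). The median over the 12 markers went the other way, -0.88 to -0.77 in tg against -0.75 to -0.19 in fetal liver. All 12 markers were well above background on all 5 arrays.

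Markers of other cells that a sort from either tissue could hold were mostly lower in tg, as were most genes. Of 8 hepatocyte markers tested 7 were lower (median -0.69), and their log2 summed level was 1.75 to 1.91 in tg against 2.08 to 2.53 in fetal liver. Of 8 erythroid markers 7 were lower (median -0.55; sums 2.04 to 2.25 against 2.31 to 2.38). Myeloid markers had 7 of 10 lower, with sums of 7.76 to 8.24 against 7.40 to 7.69. The median over the myeloid markers went the other way from these sums, -1.19 to -0.82 in tg against -0.42 to -0.14. Thymic epithelial markers had 9 of 10 lower, with sums of 3.43 to 3.75 against 3.52 to 3.60, and T cell markers 7 of 10, with sums of 4.21 to 4.54 against 4.22 to 4.41. Well above background on all 5 arrays were 5 of 8 hepatocyte, 6 of 8 erythroid, 9 of 10 myeloid, 9 of 10 thymic epithelial and 9 of 10 T cell markers. Thymocyte groups had hepatocyte sums of 2.17 to 3.08 and erythroid sums of 1.81 to 2.56, ranges that overlap those of fetal liver. No marker of any of these lists passed the test. The part of other cells in the results above was not tested.

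Genes of MHC class II, which mature B cells use to present antigen, were lower by the mean in 9 of 10 cases (median -0.60). Taken by array, 9 of 10 were lower on array 22 and 6 of 10 on array 23. Both tg arrays lay below all fetal liver arrays for 4 of 10, against 24.0% of all genes, and none passed. H2-Ob measured 0.50, 0.18 and 0.16 in fetal liver against -0.32 and -0.65, and H2-Oa -1.45, -1.40 and -0.99 against -1.84 and -2.52; both encode chains of the H2-O modulator of peptide loading. The other H2-Ob probes differed by -0.36 and, on a probe well above background on only 3 of the 5 arrays, by the opposite sign. The exception was their transcriptional activator Ciita, at 4.97, 5.24 and 5.13 against 5.24 and 5.67. Of 15 genes with fetal expression 11 were lower (median -0.25), and none passed. The imprinted RNA H19 measured 0.90, 0.74 and 0.54 in fetal liver against -0.46 and 0.43, without overlap (-0.74 ± 0.39, SE, limma adjusted p = 0.331). Another H19 probe, also well above background on all 5 arrays, went the other way (0.22, 0.40 and 0.31 against 0.46 and 0.70). The remaining H19 probes differed by -0.30 to -1.11. Lin28b, an RNA-binding protein that marks fetal lymphopoiesis, measured -5.22, -2.90 and -2.59 against -3.50 and -5.14, overlapping.

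Among cell division genes 11 of 18 were lower (median -0.16) and Pcna passed. Pcna, the replication clamp, measured -5.26, -3.15 and -3.36 in fetal liver and was not well above background in tg (-7.72 and -7.45), a fall of at least 2.58-fold (limma adjusted p = 0.0474). The proliferation marker Mki67 measured -0.17, -0.04 and -0.70 against -0.35 and 1.31, and array 22 lay within the fetal range. In the Bcl2 family the death effector Bcl2l11 measured -1.30, -1.99 and -1.53 in fetal liver against -4.58 and -7.35, with array 23 not well above background (limma adjusted p = 0.0669), but its second probe differed by 0.78, the opposite sign. Bcl2 itself was level (3.69, 3.72 and 3.93 against 3.78 and 3.94). Of adhesion genes, the integrins Itgal (0.36, 1.11 and 1.19 against 1.62 and 1.92) and Itga6 (3.78, 3.97 and 4.10 against 4.16 and 4.64) lay above fetal liver on both tg arrays, and Icam1 below (-2.30, -3.27 and -1.17 against -3.90 and -7.41). None of these 3 passed (limma adjusted p = 0.166, 0.216 and 0.166), and the other Itgal probes differed by 0.43 and -0.06.

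The lists that hold Anxa1 and Supt16 show whether their relatives moved with them. Of 12 annexins 9 were lower (median -0.68) and only Anxa1 passed. Anxa11 measured -1.92, -2.01 and -2.07 against -3.58 and -3.81, and its 2 probes differed by -1.69 and -1.16. Anxa3 measured -2.29, -1.05 and 0.01 against -2.61 and -3.30. Both lay below all fetal liver arrays, and 3 annexins were higher. Of 14 histone chaperones 11 were lower (median -0.83, of which -0.17 on array 22 and -1.76 on array 23). Anp32b measured 0.91, 0.45 and 0.42 against -1.52 and -2.46 (-2.59 ± 0.59, SE, limma adjusted p = 0.0846), with another probe at 1.08, the opposite sign, and the third well above background on only 3 of the 5 arrays. Ssrp1, which pairs with Supt16 in FACT, measured -3.37, -2.79 and -0.23 against -4.66 and -4.57, below all fetal liver arrays but without passing (limma adjusted p = 0.390).

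Cytosolic ribosomal proteins were lower in 13 of 20 cases (median -0.54), and both tg arrays lay below all fetal liver arrays for 9 of 20, against 24.0% of all genes. Rpl4 measured -1.66, -0.50 and -0.24 against -2.30 and -2.59. For Rpl3 array 22 was at 0.59, close to the fetal range of 0.71 to 0.88, and array 23 at -3.77. Rps6 went the other way on array 23 (4.39, against 2.22 on array 22 and 2.32 to 2.50 in fetal liver), and none of the 20 passed. Housekeeping genes had 6 higher and 6 lower (median -0.03), but they were not all level: B2m, the light chain of MHC class I, was at -7.67 on array 22 and -1.88 on array 23.

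**Figure D4:**
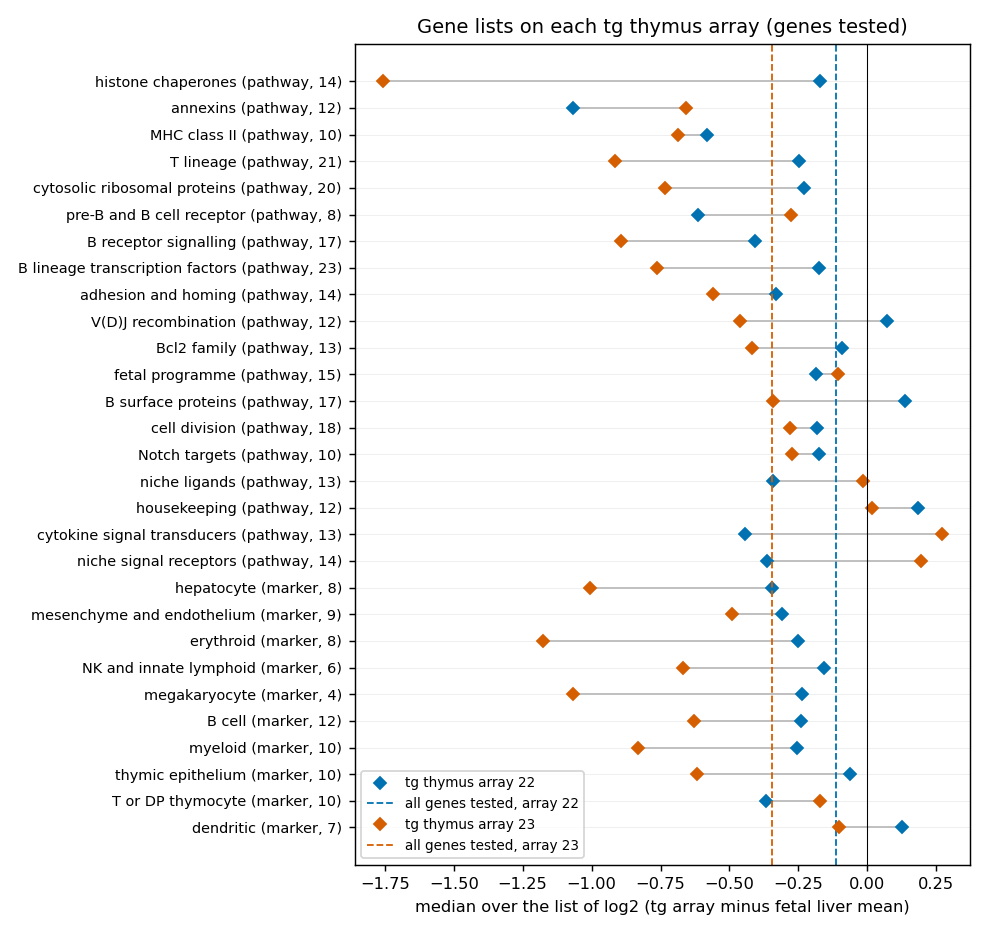
Median over each gene list of the log2 difference between 1 tg thymus array and the fetal liver mean (x axis), for array 22 and array 23, with the kind and number of genes tested in each row label; dashed lines mark all genes tested (-0.11 and -0.34). Histone chaperones (-0.17 and -1.76) and cytokine signal transducers (-0.44 and 0.27) differ between the arrays, while MHC class II genes lie at -0.58 and -0.69.

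Over the 19 pathway lists, 17 medians were below 0 and 14 were so on each tg array separately. Relative to all genes on the same array, 8 lists were lower on both. The sign held under all 5 settings of scaling, background and source (75th percentile, median, quantile, normexp, series matrix) for 10 lists below 0 (receptor complex, receptor signalling, transcription factors, V(D)J, T lineage, MHC class II, adhesion, annexins, histone chaperones and ribosomal proteins) and 2 above 0. It differed between these settings for the other 7, among them B surface proteins, fetal programme and cell division. Medians from the series matrix lay close to those from quantile scaling and add little to them. On array 22 alone the V(D)J median was 0.07. These medians carry no test. When the tg difference was compared between B cells and DP thymocytes, 2 genes passed (0.00596%), Supt16 and the probe A_55_P1981455.

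The difference of array 23 from fetal liver varied with the level of a gene. Where the fetal liver mean was -4 or lower, the median difference from it was -1.24 on array 23 and -0.33 on array 22. Above 2 it was 0.31 on array 23 and 0.00 on array 22. By GC content of the probe, it went from -0.58 at up to 35% to 0.07 above 55% on array 23, and stayed between -0.18 and -0.09 on array 22. The fetal liver mean enters both the level and the difference. Low genes therefore lay lower and bright genes higher on array 23, and the part of this pattern in any single gene was not tested.

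**Figure D5:**
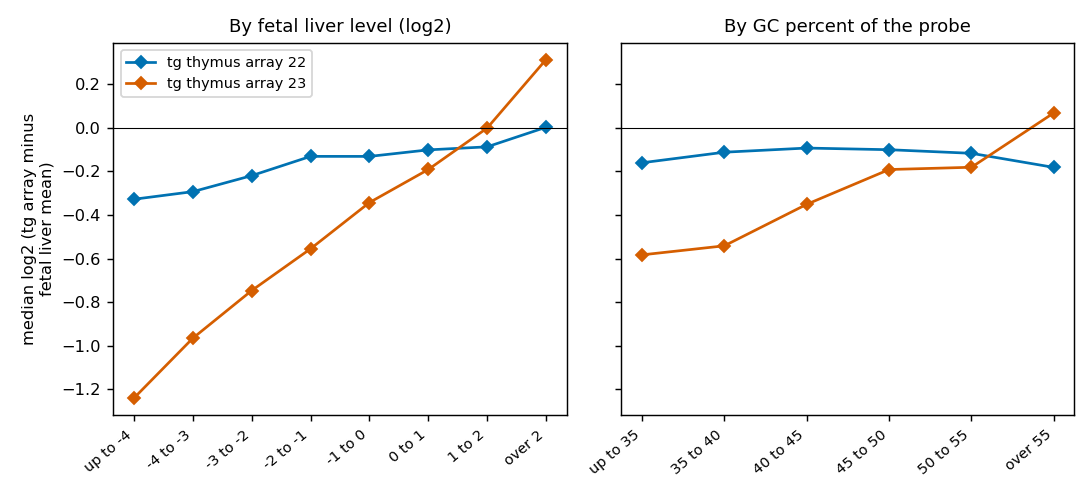
Median log2 difference between 1 tg thymus array and the fetal liver mean (y axis) for genes grouped by fetal liver level (left) and by GC percent of the tested probe (right). Array 23 climbs from -1.24 to 0.31 with level and from -0.58 to 0.07 with GC, whereas array 22 stays between -0.33 and 0.00.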

How the data were processed

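RNA of sorted cells was amplified by PCR from polyadenylated RNA (the SuperAmp procedure), labelled with Cy3 and hybridised to single-colour Agilent arrays, per the labels' protocols. Per the file headers, Feature Extraction 10.7.3.1 wrote each spot's intensity (a processed signal beside mean and background signals) and its flags. A deposited table of log2 values for the same arrays, made by the authors with a program the sources used here do not name, served as an alternative. Of 62976 spots per array, 3671 were controls and were dropped, 248 values flagged as non-uniform became missing, none was saturated, and 55681 probes remained. Names came from a reference gene table (26863 by accession, 3752 by symbol, 623 by synonym, 4 by description); 24439 probes kept the file's name. A gene was kept if a probe of it passed the scanner's background flag throughout 1 or more groups (95.2% of probes passed), with the brightest probe standing for the gene. The fit used limma 3.58.1 under R 4.3.3 over the 24 arrays, 1 mean for each of 8 groups, with Benjamini-Hochberg adjustment. The scripts that compute it were tested on simulated data. All 5 arrays share slide 4. An "at least" fold sets the brighter mean against the detection limit of each dim array and ignores the spread.

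Named genes were up to 8 higher and 12 lower called genes with a symbol, up to 6 each way among genes well above background on all 5 arrays, up to 5 members per pathway list with the strongest statistic, all receptor complex genes and 6 niche genes; further list members were chosen after their values were seen, to show a list's range, and a few genes the rule chose are not reported here. The members and the 29 lists (332 of 341 genes tested) were chosen with earlier results of these data known. Alternatives were other scalings, backgrounds, filters, probe rules, variance settings, slide as a block and leaving out arrays.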

Additional observations from a re-analysis of the deposited data

Results flagged for a closer look

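The difference between tg and control cells was itself compared between B cells (2 tg against 3 fetal liver arrays) and DP thymocytes (4 tg against 3 heterozygous arrays), with limma's test of the difference, and 2 genes (0.00596% of those tested) passed. Supt16 differed by -6.37 ± 0.81 (SE, adjusted p = 0.0111): -5.14 in B cells and 1.23 in DP cells, where the means were -2.46 in tg and -3.69 in the controls. The probe A_55_P1981455, which carries no gene symbol or position, differed by -4.90 ± 0.71 (SE, adjusted p = 0.0345): -4.58 in B cells, with -1.49, -1.51 and -1.85 in fetal liver against -5.96 and -6.43, and 0.32 in DP cells. On arrays 22 and 23 both probes missed the background criterion, which makes the differences bounds of at least 4.06 and 4.00 on the log2 scale. Some DP arrays share a title number and may be repeats of 1 sample, yet each counted as a replicate here. With arrays of a shared number averaged 1 gene passed, and with array weights, a normexp background or slide as a block 0 did. The control tissues differ between the comparisons, and whether the tg mice behind both cell types were of 1 line is unknown here.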

How the results depend on the processing

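The 16 genes that the naming rule chose and that passed kept their direction under every alternative run. For leaving out 1 of the 5 arrays this was fixed in advance, because the groups of these genes did not overlap. Runs that changed only the filter, the variance prior or arrays outside the comparison left the differences as they were. Counts of calls did not keep their size. Against 6 higher, 42 lower and 2 genes in the test of the difference between B and DP cells, array weights gave 0, 0 and 0, averaging arrays that share a title number 3, 12 and 1, no filter 2 and 10, and requiring all 5 arrays well above background 2, 3 and 0. A trend with a robust prior gave 24, 79 and 4. Only the 5 arrays gave 0 and 0 (limma; 4127 genes at an unadjusted p under 0.05, against 5758 in the full fit and 1706 with array weights). Lower calls were 12 with every probe on its own, 18 with the mean of a gene's probes, 8 with median scaling, 2 with normexp, 4 with quantile scaling, 4 in the series matrix and 66 with slide as a block. In the test of the difference these gave 0 with normexp, 1 with quantile scaling, 1 in the series matrix and 0 with slide as a block. The cause of these shifts was not tested. Leaving out 1 array gave 1 to 2492 higher, 5 to 3319 lower and 1 to 3187 in the test of the difference. The highest values came from array 23 as the lone tg array, assumed to vary like other groups; without array 23 there were 1, 8 and 5, and 3 of the 48 calls stayed. Without fetal liver 16, 17 or 18 the calls were 7, 6 and 7. Without tg DP 4 and IgM-positive 21, an alternative chosen after seeing the data as were the other fits of the difference between B and DP cells beyond scaling, background and slide, 19 rose, 167 fell and 9 differed. Cd79a passed there (adjusted p = 0.0443). No paired analysis was possible because the groups share no replicate numbers. The number of arrays limits the precision, and on array 23 so does signal near background.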
